A study of Homo sapiens with 6 samples.

Results

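Oxidative phosphorylation is the final stage of respiration, in which electrons from nutrients pass along protein complexes of the inner mitochondrial membrane and the resulting proton gradient drives ATP synthesis. The genes described here are the subunits of complexes I to V. They were taken by symbol from the deposited expression table as every row whose name starts with NDUFA, NDUFB, NDUFC, NDUFS, NDUFV, UQCR, COX4 to COX8, ATP5, MT-ND, MT-CO, MT-CY or MT-ATP, together with SDHA, SDHB, SDHC and SDHD. The NDUFAF assembly factors, 4 rows, were left out. The rule gave 99 of the 17468 genes in the table. It reads symbols only and no expression value, but it was set with earlier results of these data known.

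Complexes I and II hand electrons from NADH and succinate to ubiquinone, complex III passes them to cytochrome c, complex IV reduces oxygen, and complex V is the ATP synthase. Most subunits are encoded in the nucleus and imported, while a small core set is transcribed from mitochondrial DNA. Complex II has nuclear subunits only, and the same enzyme takes part in the tricarboxylic acid cycle. In melanoma, respiratory gene expression is known to vary with the coactivator PPARGC1A, whose gene is a target of the lineage factor MITF.

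RNA was sequenced from A375 and Colo800, both established human melanoma cell lines, after infection with virus carrying a scrambled hairpin or either of 2 hairpins against ETV1, an ETS-family transcription factor. Each line had 1 library per hairpin (scrambled, ETV1-sh1, ETV1-sh2), which made 6 libraries in all. According to the series' design text the infections were duplicated and RNA was collected on day 4, and no source used here says whether a library pools those duplicates. The sample labels describe something else. They list DMSO for the ETV1-sh1 libraries, trametinib (a MEK inhibitor) at 5 nM for ETV1-sh2 and vemurafenib (a BRAF inhibitor) at 1 uM for the scrambled libraries, with 48 hours of siRNA and 8 hours of drug, all in medium with 10% serum. If those labels are right, hairpin and drug cannot be told apart in any hairpin comparison below. The labelled treatment of each hairpin is the same in both lines. A comparison between lines would then include how each line responds to it.

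Of the 99 members, 86 were nuclear (39 of complex I, 4 of complex II, 8 of complex III, 17 of complex IV and 18 by symbol of complex V) and 12 were mitochondrially encoded. The remaining row, called MT-ATP8 in the table, carries the Ensembl identifier that GENCODE release 29 gives to MTATP8P2, a processed pseudogene on chromosome 2, so it is counted as a member and not described as a subunit. For NDUFA7 the identifier is annotated in the same release as AC010323.1, a protein-coding gene without a standard symbol. Whether the values of this row are those of the subunit, of that gene or of both is not known. ATP5S and ATP5SL, now named DMAC2L and DMAC2, are related to the synthase by name and are not synthase subunits. NDUFA4, counted here with complex I by its symbol, is now regarded as part of complex IV. Tests used the 93 members with a mean FPKM of at least 1. The other 6 were ATP5L2, COX4I2, COX6A2, COX6B2, COX7A1 and COX8C.

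Values are FPKM, the number of sequenced fragments divided by transcript length and library size. In the order scrambled, ETV1-sh1, ETV1-sh2, ETV1 itself stood at 82.8, 34.6 and 3.46 FPKM in A375 and at 180.3, 54.6 and 9.80 FPKM in Colo800. Sets of 3 values below keep this order. ETV1-sh2 libraries were the lowest in both lines. Relative depth, read from the commonest ratio among low values, ran from 0.768 to 2.10 times the A375 scrambled library, and the absolute depth is unknown. Outside that library only 6.97% to 9.72% of the low genes held the commonest ratio, so the reading is rough. SOX10, a melanocyte lineage factor, stood between 353.4 and 712.0 FPKM in all 6 libraries. S100B, another marker of the lineage, was at 118.1, 39.4 and 51.5 FPKM in A375 and 305.3, 83.9 and 159.6 FPKM in Colo800, and fell with both hairpins (-1.70 with ETV1-sh1, limma adjusted p = 0.0197, and -1.06 with ETV1-sh2, limma adjusted p = 0.0194). The part of this fall in the hairpin results was not tested. MLANA stayed at or below 1.85 FPKM. The pigment genes TYR and DCT were below 0.1 FPKM in A375 and above 14 FPKM in Colo800. Of the leukocyte markers PTPRC stayed at or below 0.121 FPKM and CD3E was at or near 0 everywhere, while LYZ was at 12.2, 19.8 and 21.0 FPKM in A375 and 0.167, 0.514 and 1.02 FPKM in Colo800 and passed for neither hairpin. The part of LYZ in the results was not tested. The keratinocyte marker KRT14 was at 9.72, 3.26 and 1.94 FPKM in A375 and 0.372, 0.116 and 0.555 FPKM in Colo800. The endothelial marker KDR was at 1.56, 4.77 and 1.37 FPKM in A375 and 0.279, 0.104 and 0.419 FPKM in Colo800. Neither passed for either hairpin, and their part in the results was not tested. KRT5, KRT1, CDH5 and VWF stayed at or below 0.338 FPKM. The 5 fibroblast markers summed to 13.1, 15.5 and 34.6 FPKM in A375 and 9.74, 10.7 and 29.7 FPKM in Colo800 (scrambled, ETV1-sh1, ETV1-sh2), and all 3 that could be tested (COL1A1, LUM and PDGFRB) rose with ETV1-sh2. COL1A2 stayed at or below 1.78 FPKM and DCN at or below 4.08. The part of this rise in the ETV1-sh2 results was not tested. In bulk RNA, fewer cells of a kind and less RNA per cell cannot be told apart.

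Promoter sequence bears on these genes because ETS factors bind a GGAA core and because GABPA (an ETS factor) and NRF1 are known regulators of nuclear respiratory genes. RefSeq promoters of build GRCh38.p14, from 250 bases before to 50 bases after the start, were matched for 70 of the 86 nuclear members. The letters CCGGAA, read on both strands, occurred in 28 of them (40.0%), compared with 30.04% of the 9203 promoters of tested genes and 17.6% of all 27305 promoters. The NRF1 core GCATGCGC occurred in 13 member promoters (18.6%), compared with 5.66% and 3.27%. Both cores stood together in 8 (ATP5C1, ATP5I, ATP5J, COX5B, COX6A1, NDUFS7, SDHB and SDHD), or 11.4% compared with 2.05% and 0.974%. A match is a description of the sequence and not evidence of binding.

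Windows of 30 bases around a CCGGAA core are shown for SDHB and SDHD, the members that fell with ETV1-sh1, and for COX4I1 and COX5B, which carry the core and passed no hairpin comparison. Each reads 5′ to 3′ along the gene's strand, and capitals mark the core, which reads TTCCGG where it lies on the other strand.
SDHB, chr1:17054143-17054172, minus strand: ccacccgggaaaCCGGAAgccgcctcccac
SDHD, chr11:112086785-112086814, plus strand: ccgcctctcgacTTCCGGttcacccagcat
COX4I1, chr16:85799550-85799579, plus strand: ctccaacgcctgCCGGAAagcagcccggcc
COX5B, chr2:97646013-97646042, plus strand: agaagcccgcccCCGGAAgtccctcctgtc
The promoters of COX5A, NDUFV2, NDUFA7, UQCR10 and ATP5SL, which passed the threshold with ETV1-sh2 as described below, held no CCGGAA in the window searched. No promoter was matched for ATP5D, which also passed with ETV1-sh2, so it was not searched. That of NDUFA7 was matched by symbol and not by the identifier of its row. Members with the core had a median fitted log2 change of 0.12 for ETV1-sh1 (n = 28) and those without it 0.21 (n = 39). For ETV1-sh2 the medians were 0.19 and 0.18, and no test was made of them.

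With ETV1-sh1, 2 members fell, both of complex II, and no member rose. These were SDHD, a membrane anchor of succinate dehydrogenase, and SDHB, its iron-sulfur subunit. Each change below is a fitted log2(FPKM + 1) difference from a limma model with cell line and hairpin as terms, and a member passed when its Benjamini-Hochberg adjusted p over 11129 genes was under 0.05. The 2 members are 2.15% of the 93 tested, compared with 1.51% of all genes called lower. Among all genes 0.773% were called higher.

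SDHD was at 11.9, 2.398 and 17.6 FPKM in A375 and at 12.1, 3.14 and 16.9 FPKM in Colo800. Both ETV1-sh1 libraries lay below the other 4. The fitted change was -1.79 (SE 0.193, limma adjusted p = 0.0197), and ETV1-sh1 left 20.2% of the scrambled level in A375 and 26.0% in Colo800. SDHB was at 171.6, 63.5 and 110.1 FPKM in A375 and 223.9, 99.7 and 158.9 FPKM in Colo800. Again both ETV1-sh1 libraries were the lowest, at 37.0% and 44.5% of the scrambled library of their line, with a fitted change of -1.29 (SE 0.156, limma adjusted p = 0.0262). With ETV1-sh2 SDHB was lower than scrambled in both lines, by a fitted -0.56 (SE 0.156), and missed the threshold at a limma adjusted p of 0.0563. The other complex II genes did not pass. SDHA, the flavoprotein with the active site, was at 67.8, 62.5 and 53.2 FPKM in A375 and 103.1, 106.3 and 68.9 FPKM in Colo800. SDHC, the other membrane anchor, was at 48.3, 43.7 and 59.9 FPKM in A375 and 48.4, 64.2 and 58.4 FPKM in Colo800. Their fitted changes with ETV1-sh1 were -0.04 (SE 0.169) and 0.13 (SE 0.20). Without any 1 of the 4 scrambled or ETV1-sh1 libraries neither SDHB nor SDHD passed, with limma adjusted p from 0.109 to 0.240 and changes of unchanged direction.

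With ETV1-sh2, 6 members passed, 3 in each direction. COX5A, ATP5D and NDUFV2 fell, and ATP5SL, NDUFA7 and UQCR10 rose. Each direction is 3.23% of the members tested, below the 9.0% of all genes called lower and the 7.73% called higher. When nuclear genes were scaled to a fixed sum without the mitochondrial transcripts, the split became 2 lower and 8 higher.

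COX5A, a nuclear subunit of complex IV, stood at 50.04, 71.5 and 7.004 FPKM in A375 and at 64.4, 107.5 and 8.06 FPKM in Colo800. Both ETV1-sh2 libraries lay far below the other 4. ETV1-sh2 left 14% of the scrambled level in A375 and 12.5% in Colo800, a fitted change of -2.76 (SE 0.176, limma adjusted p = 0.00427). COX5B, another nuclear subunit of complex IV, was at 148.4, 110.8 and 184.8 FPKM in A375 and 182.7, 200.3 and 209.5 FPKM in Colo800. Its ETV1-sh2 libraries were the highest of each line, and its fitted change of 0.26 (SE 0.204) did not pass. Leaving out any 1 library kept the COX5A call.

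ATP5D encodes the delta subunit of the synthase's central stalk. Its levels were 66.3, 56.4 and 28.7 FPKM in A375 and 63.5, 78.0 and 25.7 FPKM in Colo800. The ETV1-sh2 libraries were again the lowest, with a fitted change of -1.23 (SE 0.202, limma adjusted p = 0.0175), and the call was lost without either scrambled library (limma adjusted p 0.115 without that of A375 and 0.0675 without that of Colo800). NDUFV2, a subunit of the NADH-oxidising module of complex I, was at 59.9, 59.0 and 34.8 FPKM in A375 and 94.7, 121.4 and 57.7 FPKM in Colo800. Within each line ETV1-sh2 was lowest, while across lines the values overlapped, since Colo800 with ETV1-sh2 was near A375 scrambled. The fitted change of -0.74 (SE 0.171, limma adjusted p = 0.0361) missed the threshold without any 1 of the 6 libraries, with limma adjusted p from 0.0541 to 0.254.

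The members that rose had fitted changes of less than 2-fold. UQCR10, a small subunit of complex III, was at 298.3, 334.6 and 473.8 FPKM in A375 and 335.5, 580.3 and 618.5 FPKM in Colo800, and rose by 0.77 (SE 0.193, limma adjusted p = 0.0436). Its Colo800 library with ETV1-sh1 was above the A375 library with ETV1-sh2, so the hairpins overlapped across lines. The row NDUFA7, named for a complex I accessory subunit and with the identifier of another gene, was at 95.0, 105.6 and 177.0 FPKM in A375 and 67.0, 104.9 and 124.5 FPKM in Colo800. Both ETV1-sh2 libraries exceeded the other 4, with a fitted change of 0.89 (SE 0.186, limma adjusted p = 0.0284). The row ATP5SL had 20.9, 25.9 and 46.5 FPKM in A375 and 20.2, 23.3 and 33.7 FPKM in Colo800, and also had both ETV1-sh2 libraries on top, with a change of 0.91 (SE 0.181, limma adjusted p = 0.0252). Leaving out 1 library ended these calls in many cases. UQCR10 passed only without Colo800 ETV1-sh1 (limma adjusted p up to 0.290, without Colo800 scrambled). ATP5SL passed only without Colo800 ETV1-sh2 (up to 0.179, without A375 scrambled). NDUFA7 was lost without either scrambled library or A375 ETV1-sh2 (up to 0.182, without Colo800 scrambled).

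**Figure D1:**
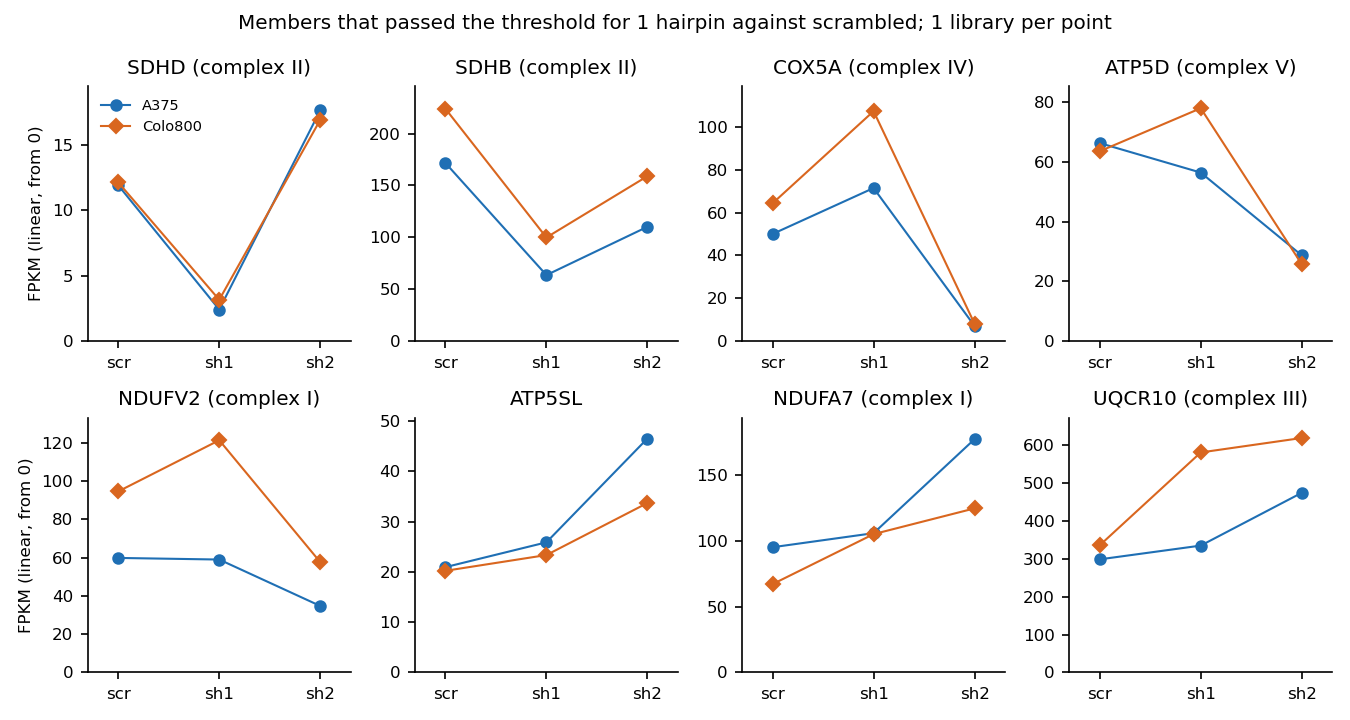
FPKM (linear axis from 0) of the 8 members that passed the adjusted threshold for ETV1-sh1 or ETV1-sh2 against scrambled, with 1 library per point and 1 line per cell line. SDHD and SDHB dip at ETV1-sh1, COX5A, ATP5D and NDUFV2 dip at ETV1-sh2, and ATP5SL, NDUFA7 and UQCR10 are highest at ETV1-sh2 in both lines.

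Each complex also had members at the ends of its range that did not pass. In complex I the largest fitted gain with ETV1-sh2 after NDUFA7 was that of NDUFA5, an accessory subunit, at 0.69 (SE 0.188, limma adjusted p = 0.0527), with 32.3, 19.1 and 45.4 FPKM in A375 and 36.4, 30.5 and 69.2 FPKM in Colo800. Among nuclear members of complex I, NDUFB10 had the lowest fitted change after NDUFV2, at -0.34 (SE 0.205). In complex III the ends were UQCR11, at -0.50 (SE 0.255), and UQCR10. UQCRC1, a core subunit, was at 0.13 (SE 0.159) and UQCRB at -0.15 (SE 0.151). In complex V, ATP5B, the catalytic beta subunit, was at -0.49 (SE 0.163, limma adjusted p = 0.0876), with 267.4, 239.1 and 188.0 FPKM in A375 and 243.6, 274.7 and 175.4 FPKM in Colo800. ATP5H, a stalk subunit, was at 0.45 (SE 0.165). Like ATP5D, ATP5B was lowest with ETV1-sh2 in each line.

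The hairpins differed from each other directly for 8 members. Against ETV1-sh1, the ETV1-sh2 libraries were lower for COX5A (-3.38, SE 0.176), ATP5D (-1.26, SE 0.202) and NDUFV2 (-0.90, SE 0.171), which is 3.23% of members compared with 6.91% of genes. They were higher for 5 members (5.38%, compared with 6.82% of genes): SDHD (2.28, SE 0.193), NDUFA5 (1.18, SE 0.188), MT-ND6 (0.99, SE 0.203), NDUFC1 (0.92, SE 0.160) and SDHB (0.73, SE 0.156). Adjusted p in limma ran from 0.00426 for COX5A to 0.0332 for SDHB. NDUFA5 and NDUFC1, another small complex I subunit, lay on opposite sides of scrambled with the 2 hairpins. NDUFC1 was at 93.3, 62.1 and 129.5 FPKM in A375 and 106.4, 85.1 and 147.1 FPKM in Colo800, so ETV1-sh1 was lowest and ETV1-sh2 highest in each line. The SDHB call was lost whichever library was left out (limma adjusted p from 0.0653 to 0.160), and none of the 8 passed without the A375 ETV1-sh1 library or without that of Colo800.

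No member was called when both hairpins were set against scrambled with cell line as a term, and no gene of the whole table was (0.0%). Without adjustment 3 members were under 0.05 in this limma fit (SDHB lower, NDUFA7 and UQCR10 higher), as were 1204 genes, and the smallest adjusted p was 0.405 among members and 0.135 among genes. The difference of the hairpin effect between lines likewise called no member and no gene (0.0%), with 0 members and 66 genes at an unadjusted p under 0.05. In both fits the 2 hairpins count as replicates of 1 knockdown state, so differences between them enter the spread. Between the hairpins 1528 genes passed the threshold, so the lack of calls here does not show a lack of shared or line-specific effects. The fitted difference between lines, above 0 where the change was more positive in Colo800, had a median of 0.22 for members and 0.02 for all genes. The members share the same libraries, with 1 scrambled library per line, so they are not independent.

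The bulk of the subunits moved little and differently in each library. The ETV1-sh1 library of A375 had a median member difference from scrambled of -0.12, with 34 of 93 members above 0 (36.6%, compared with 48.0% of genes). In A375 with ETV1-sh2 the median was 0.17 and 61 members were above 0 (65.6%, compared with 53.1% of genes). Colo800 had higher medians, 0.34 with ETV1-sh1 (79 members above 0, or 84.9%, compared with 52.4% of genes) and 0.20 with ETV1-sh2 (68 members, or 73.1%, compared with 53.5%). The medians of all genes in these libraries were -0.02, 0.04, 0.02 and 0.05. The 2 libraries with ETV1-sh1 thus lay on opposite sides of 0, and each pair shares its scrambled library with the ETV1-sh2 comparison of that line. In Colo800 with ETV1-sh1 every one of the 8 UQCR members was above its scrambled value, by 0.24 to 0.79, whereas in A375 4 of 8 were. A total of 25 members were above scrambled in all 4 hairpin libraries, or 26.9% compared with 19.7% of genes, and 3 (MT-ND3, NDUFA11 and SDHB) were below it in all 4, or 3.23% compared with 16.8%.

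Differences of at least 2-fold within a line, which have no test, were few. COX7B2 and MT-ND6 were among them without passing the fit, and NDUFV2, NDUFA7 and UQCR10 were not. In A375 with ETV1-sh1, SDHB and SDHD were lower by that much and no member was higher, with 3.89% of genes lower and 2.77% higher. Colo800 with ETV1-sh1 gave SDHB and SDHD lower and none higher, with 3.96% and 2.54% of genes. For ETV1-sh2 ATP5D and COX5A were lower in A375, where ATP5SL and COX7B2 were higher (8.29% of genes lower, 6.93% higher). In Colo800 ATP5D and COX5A were lower and MT-ND6 was higher (6.38% and 5.18% of genes), and the count of 1 higher became 6 with nuclear scaling and 2 with a pseudocount of 0.1.

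**Figure D2:**
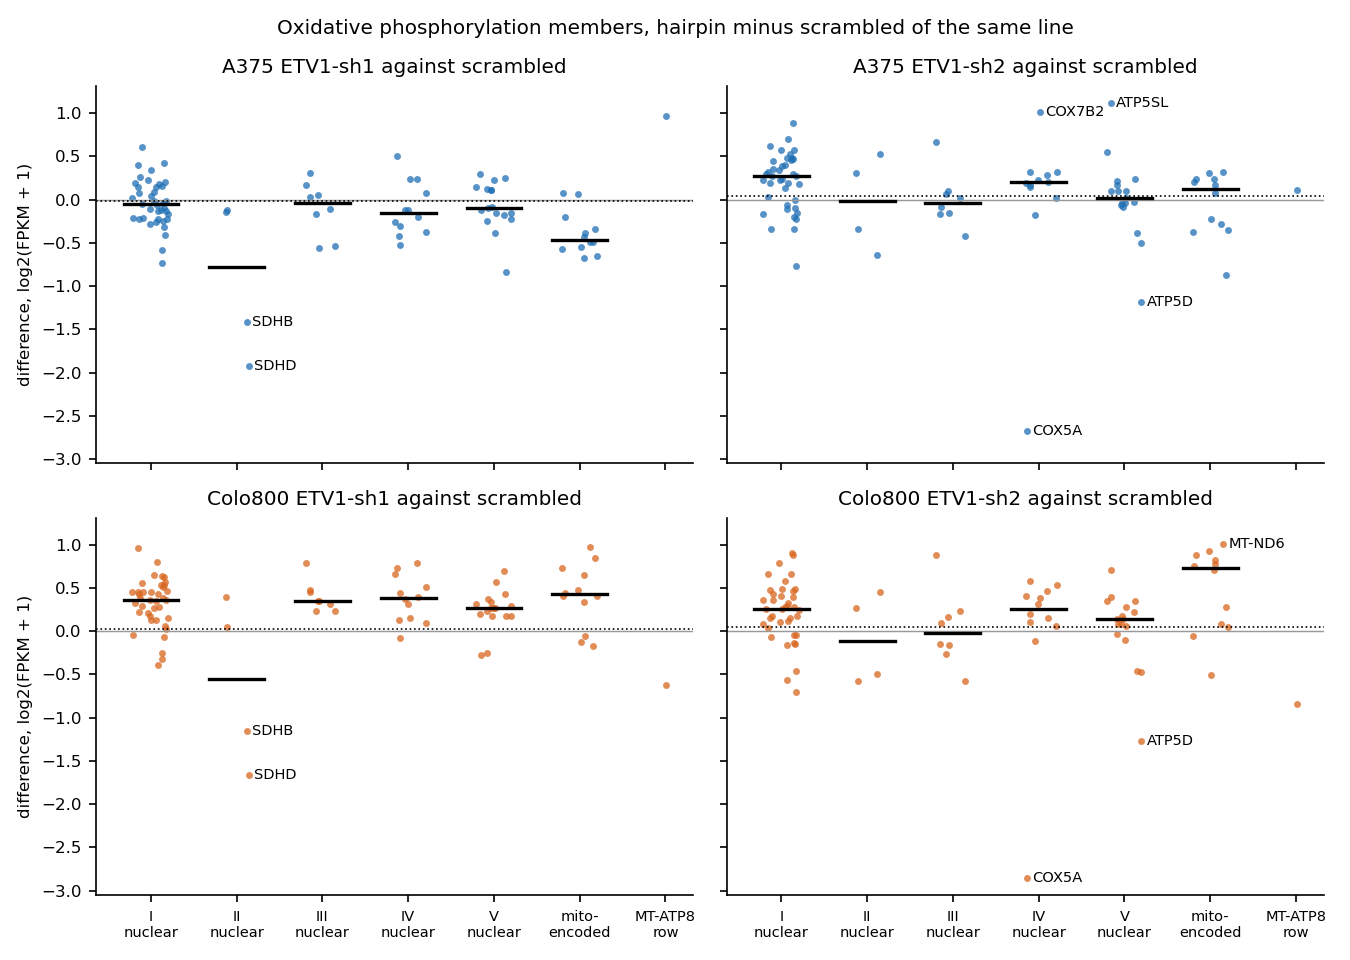
Difference of each of the 93 members from the scrambled library of its line, in log2(FPKM + 1), by complex, for the 4 hairpin libraries. Points are genes, black bars are complex medians, the dotted line is the median of all genes tested, and names mark differences of at least 2-fold, where SDHB and SDHD stand low with ETV1-sh1 and COX5A and ATP5D with ETV1-sh2.

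The 12 mitochondrially encoded genes are transcribed from both strands of 1 circular genome as long precursors, and MT-ND4L and MT-ND4 overlap, so they are not independent. None passed for either hairpin against scrambled, although 2 were called higher with ETV1-sh2 under nuclear scaling. Together they took 4.56%, 3.83% and 5.03% of all FPKM in A375 and 6.15%, 7.82% and 9.20% in Colo800. The nuclear members took 1.92%, 1.89% and 2.22% in A375 and 1.63%, 2.05% and 1.99% in Colo800. The ratio of the mitochondrial to the nuclear sum was therefore 2.37, 2.03 and 2.27 in A375 and 3.77, 3.81 and 4.63 in Colo800, and every Colo800 library exceeded every A375 library. Ribosomal protein genes, which took between 15.9% and 18.9% of all FPKM in A375 and between 6.37% and 8.97% in Colo800, moved the other way between lines. Without those genes in the sum the mitochondrial shares were 5.45%, 4.73% and 5.98% in A375 and 6.62%, 8.59% and 9.83% in Colo800, so each Colo800 library was still above each A375 library.

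Within A375 the mitochondrial genes had a median difference from scrambled of -0.46 with ETV1-sh1, where 10 of 12 were below 0, and of 0.12 with ETV1-sh2. In Colo800 the medians were 0.43 and 0.73. MT-ND6, the complex I subunit encoded on the opposite strand to the others, was at 1363, 970.8 and 1700 FPKM in A375 and 1049, 932.5 and 2104 FPKM in Colo800. ETV1-sh2 gave its highest level in each line and ETV1-sh1 the lowest, and its change with ETV1-sh2 against scrambled was 0.66 (SE 0.203, limma adjusted p = 0.0723). No source used here gives the strandedness, so reads from the strand opposite to MT-ND6 cannot be told apart from its own. MT-ND1, a complex I core subunit near the start of the main transcript, had 1190, 943.2 and 652.2 FPKM in A375 and 1150, 2072 and 1400 FPKM in Colo800. Its ETV1-sh2 library was the lowest in A375, and its ETV1-sh1 library was the highest in Colo800. MT-CO3, of complex IV, was at 1805, 1284 and 1485 FPKM in A375 and 1802, 3539 and 1914 FPKM in Colo800, so ETV1-sh1 was lowest in A375 and highest in Colo800. MT-CO1, the catalytic subunit of complex IV, had 2279, 1981 and 2688 FPKM in A375 and 2234, 3032 and 4121 FPKM in Colo800. MT-CYB, the mitochondrial subunit of complex III, was at 1499, 1108 and 1762 FPKM in A375 and 1396, 2199 and 2273 FPKM in Colo800. For both genes ETV1-sh2 was highest in each line. None of these genes passed the test of the line difference given above, which counts the hairpins as replicates.

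**Figure D3:**
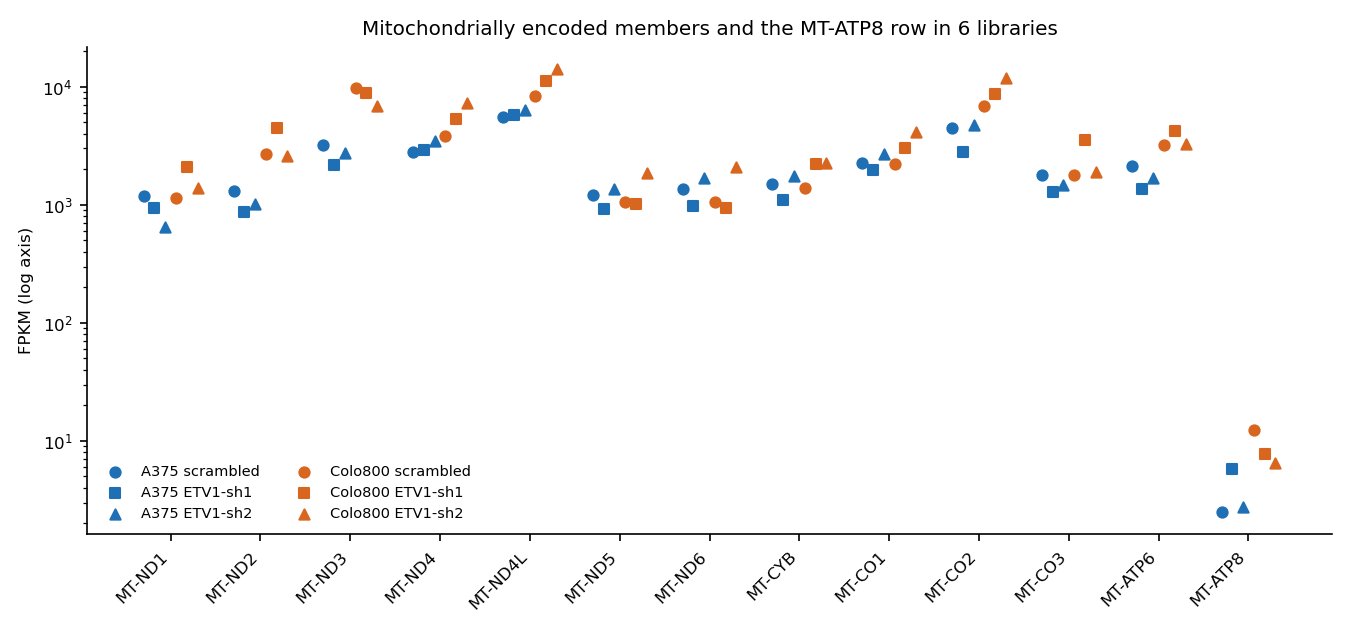
FPKM (log axis) of the 12 mitochondrially encoded genes and of the MT-ATP8 row in the 6 libraries, with lines by colour and hairpins by symbol. The MT-ATP8 row, whose identifier is that of a nuclear pseudogene, lies between 2.49 and 12.4 FPKM, far below the others. MT-ND2, MT-ND3, MT-ND4, MT-ND4L, MT-CO2, MT-ATP6 and the MT-ATP8 row are higher in every Colo800 library than in any A375 library.

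Between the lines many more members differed. With hairpin as a term, 27 members were higher in Colo800 (29.03%, compared with 31.8% of genes) and 18 were lower (19.4%, compared with 25.3% of genes), but this order turned to 21 higher and 27 lower when libraries were centred on their medians, and to 20 and 27 with nuclear scaling. The lower count fell to 8 without the A375 scrambled library and to 8 without that of Colo800. Of the 12 mitochondrially encoded genes 7 were higher and none lower, with 6 higher under each of these scalings and 0 with no filter on low values, while nuclear members divided into 19 higher and 18 lower, or 14 and 27 with centred libraries. All 3 Colo800 libraries exceeded all 3 A375 libraries for 20 members (21.5%, compared with 26.2% of genes) and lay below them for 21 (22.6%, compared with 21.6%).

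The mitochondrial genes with the largest excess in Colo800 were MT-ND3 and MT-ND2, both of complex I. MT-ND3 was at 3189, 2185 and 2740 FPKM in A375 and 9672, 8881 and 6815 FPKM in Colo800, a fitted difference of 1.65 (SE 0.174, limma adjusted p = 0.000680). MT-ND2 was at 1302, 873.3 and 1008 FPKM in A375 and 2701, 4473 and 2605 FPKM in Colo800, and differed by 1.59 (SE 0.253, limma adjusted p = 0.00284). The lines did not overlap for either gene. MT-CO2, a complex IV core subunit, followed at 1.19 (SE 0.214), and MT-ATP6, the synthase subunit of the proton channel, at 1.05 (SE 0.214). MT-CO1, MT-CO3, MT-CYB, MT-ND5 and MT-ND6 did not pass.

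Among nuclear members the excess of Colo800 was largest for NDUFA6, a complex I accessory subunit, at 48.9, 51.7 and 55.9 FPKM in A375 and 113.5, 152.9 and 125.9 FPKM in Colo800 (fitted difference 1.30, SE 0.140, limma adjusted p = 0.000726). ATP5G3, which encodes the rotating c subunit of the synthase, differed by 1.14 (SE 0.178). It is 1 of 3 genes for the same mature protein. ATP5G1 differed by 0.60 (SE 0.231) and did not pass. ATP5G2 was lower in Colo800 by 0.41 (SE 0.125), with 303.7, 328.4 and 290.0 FPKM in A375 and 209.2, 264.9 and 221.0 FPKM in Colo800. ATP5G3 was at 108.4, 97.4 and 109.4 FPKM in A375 and 200.6, 298.1 and 209.8 FPKM in Colo800, and exceeded ATP5G2 in 1 library, that of Colo800 with ETV1-sh1.

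On the A375 side stood several small subunits. COX7B2, an isoform of the complex IV subunit COX7B known from testis, was at 11.1, 13.3 and 23.5 FPKM in A375, listed at 0 in Colo800 scrambled, and at 0.111 and 0.307 FPKM in Colo800 with ETV1-sh1 and ETV1-sh2. The fitted difference of -3.84 (SE 0.201, limma adjusted p = 9.24e-05) depends on the pseudocount, and became -6.22 with a pseudocount of 0.1. NDUFA2 of complex I was at 43.1, 39.6 and 59.8 FPKM in A375 and 13.8, 20.3 and 22.3 FPKM in Colo800, a difference of -1.30 (SE 0.169, limma adjusted p = 0.00135). NDUFA13 (-1.09), UQCRQ (-1.08), ATP5I (-1.08) and NDUFB7 (-0.94) followed, with SE from 0.139 to 0.209, and in each the lines did not overlap. Of the 12 nuclear members counted with complex IV and tested, 5 were lower in Colo800 and 1, COX7A2L, a factor in the assembly of supercomplexes, was higher. This split depends on the assignment by symbol, which leaves out NDUFA4. That gene was at 101.0, 98.0 and 123.8 FPKM in A375 and 180.4, 257.1 and 238.3 FPKM in Colo800, and its lines did not overlap. Among all genes 25.3% were lower and 31.8% higher, and the split of all nuclear members changed with scaling, as given above.

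The scrambled libraries alone, compared without a test, had more members lower than higher in Colo800. Above 0 were 41 of 93 members (44.1%, compared with 52.3% of genes), and the median difference was -0.05 for members and 0.05 for all genes. With libraries centred on their medians 37 members were above 0, and these medians were -0.14 and -0.04. At least 2-fold lower in Colo800 were 8 members (ATP5I, COX7B2, COX7C, COX8A, NDUFA13, NDUFA2, NDUFB7 and UQCRQ), compared with 13.4% of genes, and at least 2-fold higher were MT-ND2, MT-ND3, NDUFA6 and the MT-ATP8 row, compared with 17.2% of genes. With centred libraries the counts at least 2-fold lower and higher were 11 and 3.

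**Figure D4:**
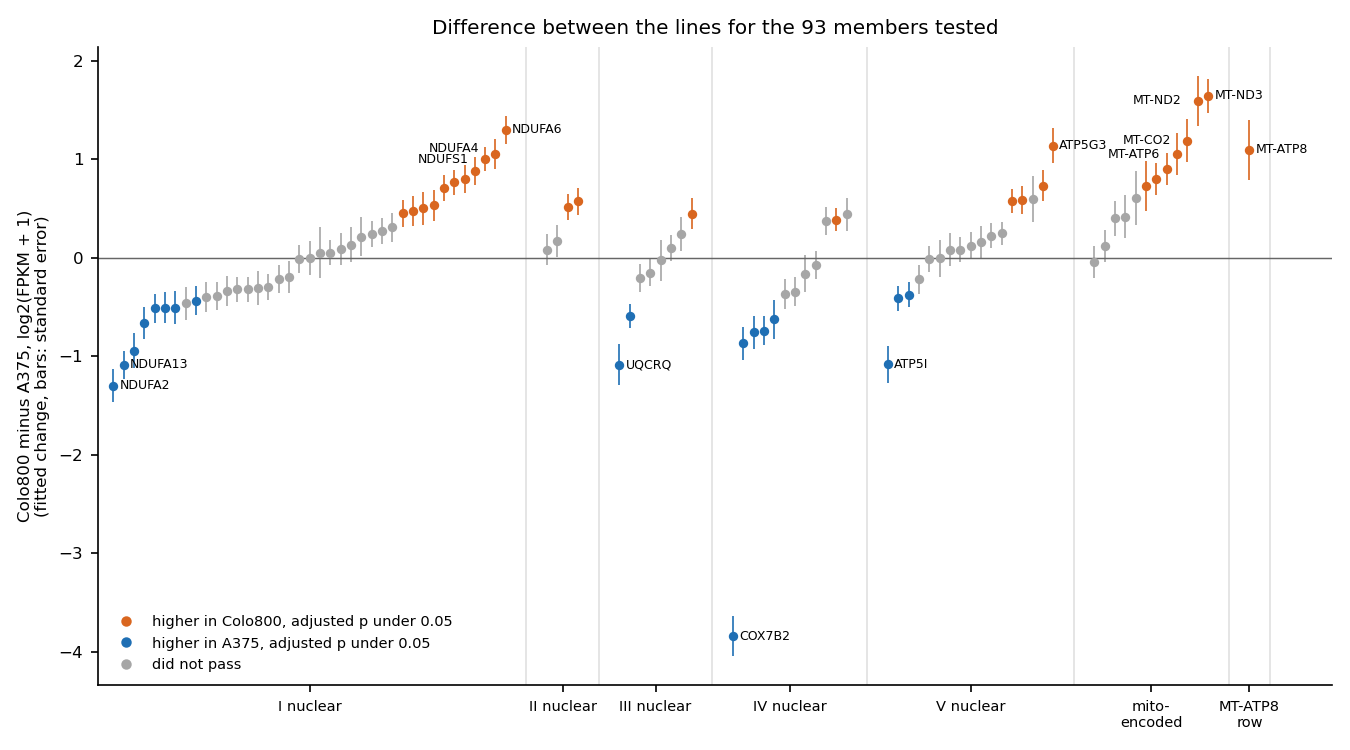
Fitted Colo800 minus A375 difference in log2(FPKM + 1) with its standard error for the 93 members tested, ordered within complex. Orange and blue points passed the adjusted threshold, names mark differences of at least 1 in size, and the mitochondrially encoded genes that passed are all higher in Colo800 while COX7B2 is far lower.

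Several complex IV subunits have tissue-specific isoforms, and most of the restricted forms were at or near 0 in both lines, with COX7B2 in A375 as the exception given above. COX4I1 stood between 188.2 and 387.2 FPKM, whereas COX4I2, the lung form, was listed at 0 in all 6 libraries. COX6A1 ran from 79.1 to 176.2 FPKM and the muscle form COX6A2 reached 0.136 FPKM in 1 library. COX7A1, another muscle form, stayed at or below 0.353 FPKM. COX6B2 and COX8C, known from testis, stayed at or below 0.260 and 0.154 FPKM. The muscle markers summed to between 0.227 and 2.84 FPKM. NDUFA4L2, a paralog of NDUFA4 known as a hypoxia target, was low, at 1.00, 0.717 and 2.26 FPKM in A375 and 1.63, 1.01 and 2.301 FPKM in Colo800. ETV1-sh2 gave its highest level in each line, and its fitted change was not past the threshold.

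**Figure D5:**
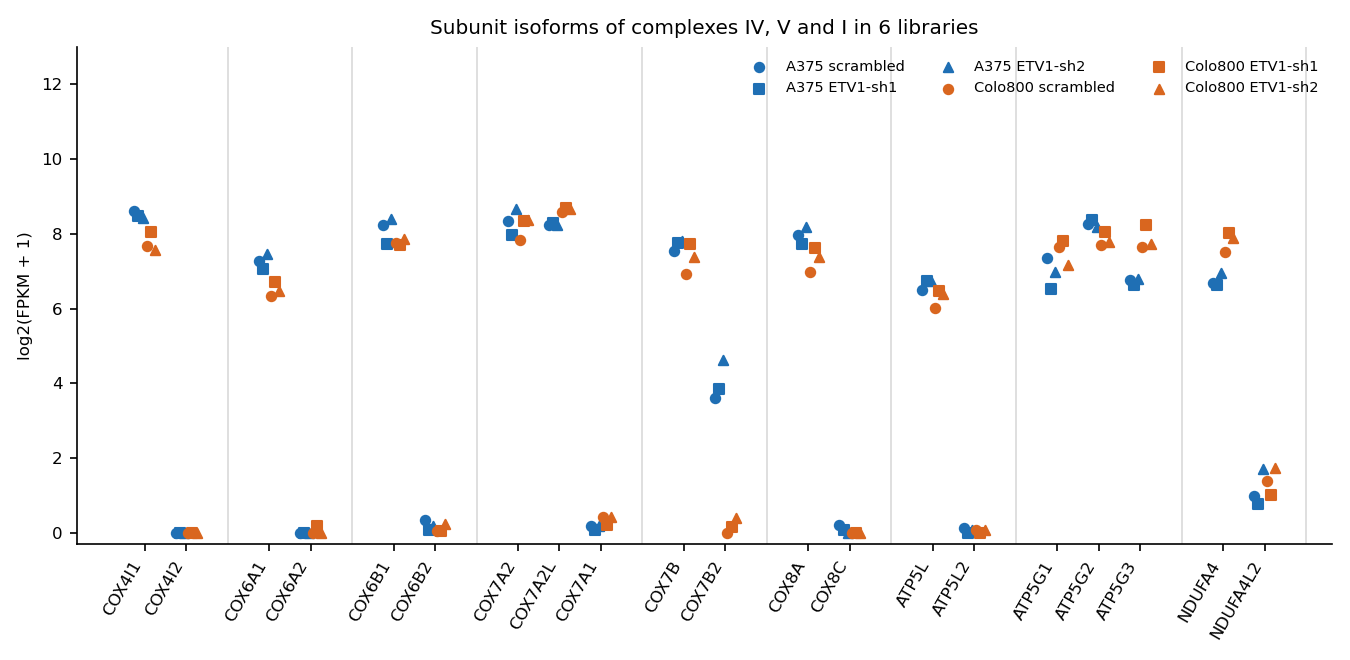
Levels in log2(FPKM + 1) of members that have isoforms or close paralogs, in the 6 libraries, with lines by colour and hairpins by symbol. COX4I2, COX6A2, COX6B2, COX7A1, COX8C and ATP5L2 lie near 0 beside their widely expressed counterparts, and COX7B2 is present in the A375 libraries and near 0 in Colo800.

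Genes around the respiratory chain were described by lists of textbook members, without a test of any list. Among all genes tested, 1.51% were called lower and 0.773% higher with ETV1-sh1, and 9.0% and 7.73% with ETV1-sh2. Of 16 electron carrier genes none passed with ETV1-sh1. PDSS1 fell with ETV1-sh2 (-0.80), while PDSS2, the partner subunit in making the ubiquinone side chain, and COQ10B rose (0.85 and 0.84). Cytochrome c, CYCS, was higher in Colo800, with 101.1, 91.1 and 77.0 FPKM in A375 and 336.2, 304.0 and 223.3 FPKM in Colo800. Of 30 assembly factors TMEM70, which helps build the synthase, fell with ETV1-sh1 (-1.16), and ATPIF1, the inhibitor of the synthase, rose with ETV1-sh2 (0.81). ATPIF1 was at 1140, 1118 and 1864 FPKM in A375 and 569.6, 885.8 and 1066 FPKM in Colo800.

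Among 22 genes of the tricarboxylic acid cycle and pyruvate dehydrogenase, which feed the chain, IDH3A (-1.08) and DLAT (-1.63) fell with ETV1-sh1. With ETV1-sh2 DLST, a subunit of the 2-oxoglutarate dehydrogenase complex, fell by 1.91 (SE 0.176, limma adjusted p = 0.00806), with 28.2, 26.1 and 7.29 FPKM in A375 and 32.8, 32.9 and 7.40 FPKM in Colo800. PDK1, a kinase that inhibits pyruvate dehydrogenase, fell (-0.94) and its relative PDK2 rose (1.25).

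The list of outer membrane and import genes had the largest share of falling genes with ETV1-sh2. It was set up for mitochondrial content and also holds HSPD1, HSPE1, PHB and PHB2, which are not outer membrane or import genes. Of its 15 genes 6 fell (VDAC1, TOMM20, TOMM40, TOMM70A, TIMM50 and HSPD1) and none rose, beside 9.0% of all genes falling, and the list's median change was -0.53, compared with 0.18 for the 93 respiratory members and 0.05 for all genes. TOMM20, an import receptor, was at 57.8, 61.0 and 31.1 FPKM in A375 and 36.7, 37.4 and 17.5 FPKM in Colo800. With ETV1-sh1 1 gene of the list, TOMM22, fell (-1.65). Of 76 mitochondrial ribosome genes 6 fell and 2 rose with ETV1-sh2, beside 9.0% and 7.73% of all genes. With ETV1-sh1 1 of them, MRPS18B, fell, beside 1.51% of all genes. Among 16 genes for mitochondrial DNA and RNA upkeep, LRPPRC, which stabilises mitochondrial messenger RNA, fell with ETV1-sh2 (-0.84) and POLG, the mitochondrial DNA polymerase, rose (0.88).

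Of 13 nuclear regulators tested, MYC fell with ETV1-sh2 (-2.26, SE 0.218, limma adjusted p = 0.00806) and NFE2L2 rose (0.79). PPARGC1A was at 0.849, 1.15 and 0.294 FPKM in A375 and 16.1, 11.5 and 2.38 FPKM in Colo800. It was lowest with ETV1-sh2 in both lines, but the change of -1.43 (SE 0.422) did not pass (limma adjusted p = 0.0659), and it was higher in Colo800 by 2.38 (SE 0.344). MITF was at 12.6, 8.61 and 10.5 FPKM in A375 and 116.5, 91.5 and 38.4 FPKM in Colo800, again higher in Colo800 (2.72, SE 0.296), with no change past the threshold for either hairpin. GABPA was at 6.50, 4.47 and 12.7 FPKM in A375 and 5.23, 3.19 and 7.87 FPKM in Colo800, and was higher with ETV1-sh2 than with ETV1-sh1 by 1.20 (SE 0.202, limma adjusted p = 0.0171).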

How the data were processed

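RNA was sequenced from 6 libraries, 1 for each of 2 cell lines and 3 hairpins. The authors' deposited values are FPKM made with STAR 2.4, Cufflinks 2.2.1 and Cuffnorm on hg19, per the submitters' processing notes. No source used here gives the annotation, strandedness, filters or scaling method. By identifier, 20 of the 99 members had another symbol, or for NDUFA7 none, in the reference names.

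From these values limma 3.58.1 in R 4.3.3 (lmFit, then eBayes with a variance trend) was fitted on log2(FPKM + 1) over the 11129 genes whose mean FPKM reached 1, with Benjamini-Hochberg adjustment. This scale understates changes of low genes. Cell line and 3 hairpin levels left 2 residual degrees of freedom, and both hairpins together left 3. With 1 library per line and hairpin, the 2 cell lines act as the replicates of each hairpin. P-values measure only the spread between these libraries. In the fits with 3 hairpin levels, it is how far hairpin differences vary between the lines. Line-specific response and technical variation cannot be told apart in it. In the fits that pool the ETV1 hairpins, it includes the differences between those hairpins. The code was tested on simulated data with changes set for ETV1-sh2. At a log2 change of 1 in size, 35 of 100 changed genes were called, and at 2 in size 97 of 100. False calls numbered 15 among the 11129 genes. A member that did not pass is therefore not shown to be unchanged.

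The rule for members, which reads symbols only, and the lists and tests were chosen with earlier results of these data known. Named members were those past the threshold for a hairpin (up to 14 per direction), the 2 highest and 2 lowest changes with ETV1-sh2 per complex, the 6 largest line differences per direction, complex II, the mitochondrial genes and isoform pairs, with the 3 leading genes per list. Genes beside the comparisons that this rule did not name were chosen after their values were seen. Promoters came from RefSeq, the earliest listed entry per symbol.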

Additional observations from a re-analysis of the deposited data

How the results depend on the processing

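Of the changes of single members recomputed under 12 alternatives, namely the hairpin calls, the largest line differences and the extremes of each complex, none turned direction. Those of SDHA, SDHC and the mitochondrial and isoform genes named for their levels alone were not among them. With no filter on low values, no member was called with ETV1-sh1 (0 lower), with ETV1-sh2 (0 lower, 0 higher) or between the hairpins (0 lower, 0 higher), and the line comparison gave 7 lower and 13 higher. Leaving out each library in turn gave 0 to 2 members lower with ETV1-sh1, 1 to 2 lower and 0 to 3 higher with ETV1-sh2, 0 to 4 lower and 0 to 4 higher between the hairpins, and 8 to 21 lower and 18 to 24 higher in Colo800. These fits assume that a lone library varies like the others. The test of the line difference gave no value without either scrambled library. Scaling nuclear genes to a fixed sum called 8 members higher with ETV1-sh2, and shifted the median of all genes by 0.10 in A375 with ETV1-sh2, by 0.15 in Colo800 with ETV1-sh2 and by -0.12 between the scrambled libraries. Members above scrambled then numbered 69 and 80 of 93 with ETV1-sh2. Counts of members at least 2-fold higher became 1 in A375 with ETV1-sh1 (with a pseudocount of 0.1 and with nuclear scaling), 1 in Colo800 with ETV1-sh1 (pseudocount 0.1), and 2 (pseudocount 0.1) and 6 (nuclear scaling) in Colo800 with ETV1-sh2. Without ribosomal protein genes in the sum, the A375 shares were 2.29%, 2.33% and 2.64% for nuclear and 5.45%, 4.73% and 5.98% for mitochondrially encoded members (scrambled, ETV1-sh1, ETV1-sh2), and those of Colo800 were 1.76%, 2.25% and 2.12%, and 6.62%, 8.59% and 9.83%. The cause of these shifts was not tested. No paired analysis by replicate number was possible because each group has 1 library. Pairing by cell line is part of every hairpin fit. Depth is unknown in FPKM, so no counting error could be given.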
